A study of Homo sapiens with 6 samples.

Results

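RAB genes encode small GTPases that mark and direct the membrane compartments of the cell. The members described here are the rows of the deposited count table whose gene name is RAB followed by a number and, where present, a paralog letter from A to F or an L suffix. This rule matched 64 of the 32078 named genes, and 50 of the 64 had enough counts to be tested. All 6 libraries carry the label PANC-1, a widely used pancreatic carcinoma cell line of human origin. In 3 libraries the treatment label is none (control-labelled), and in 3 it is CAF-derived Evs, extracellular vesicles from cancer-associated fibroblasts (EV-labelled). No dose or exposure time was found in the labels, and the protocol text mentions vesicle pretreatment for every library, so the groups rest on titles and treatment labels. The labels do not tie replicates to separate cultures, and each p-value therefore reflects the spread among these libraries alone, possibly technical. The comparison asks which RAB transcripts differ between the vesicle-labelled cells and the cells labelled as untreated.

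A RAB protein works as a switch. Bound to GTP, it sits in the membrane by lipid tails on its end and recruits effectors such as tethers, motors and fusion factors, and bound to GDP it can be extracted from the membrane and carried through the cytosol. Exchange factors of the DENN family and others turn it on, and GTPase-activating proteins, most with a TBC domain, turn it off. In carcinoma cells RAB proteins govern the recycling of integrins and growth factor receptors, the path of cargo to the lysosome, and the docking of multivesicular endosomes whose inner vesicles are released as exosomes.

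Counts per library ranged from 21669757 to 27535620, and levels are given as CPM, counts scaled to library size with TMM factors. The libraries of a group differed by more than counting noise in every pair (chi-square per degree of freedom 4.94 to 9.65). Each was used as a separate sample, although this spread cannot tell separate cultures from technical repeats. The keratin genes KRT8 and KRT18, simple epithelial markers, averaged 3063 and 1271 CPM in the control-labelled libraries. The epithelial markers EPCAM and CDH1 had 0 counts in all 6. Another keratin gene among the 7 listed epithelial markers, KRT7, averaged 0.279 CPM in the control-labelled and 0.0831 CPM in the EV-labelled libraries. Of 13 fibroblast markers, 12 were in the table and their summed level was 377 to 414 CPM in the control-labelled and 366 to 408 CPM in the EV-labelled libraries, most of it from the collagen genes COL1A2, which rose, and COL6A3, which fell. In all, 2 of the 5 tested fibroblast markers rose and 2 fell, and of the 4 tested epithelial markers KRT19 and MUC1 fell and 0 rose, and their part in the RAB results was not tested. The fibroblast markers DCN, LUM, THY1 and POSTN had 0 counts in every library. The immune markers, 6 of 8 in the table, summed to 5.06 to 6.11 CPM against 3.67 to 4.54 CPM, with 0 counts of PTPRC, and of the 3 tested 1 fell (CD8A) and 0 rose. In bulk RNA, fewer cells with a transcript and less of it per cell cannot be told apart.

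The promoters of 4 genes are shown because the results turn on them: RAB27A and RAB27B, paralogs that moved in opposite directions, and RAB4A and RAB5A, a recycling and an early endosomal gene that did so as well. Each line gives the 250 bases before the annotated start, 5′ to 3′ on the gene's strand, from RefSeq on GRCh38.p14. Capitals mark a GC box (GGGCGG) or an E-box (CACGTG), read on both strands.
RAB27A, chr15:55319124-55319373, minus strand: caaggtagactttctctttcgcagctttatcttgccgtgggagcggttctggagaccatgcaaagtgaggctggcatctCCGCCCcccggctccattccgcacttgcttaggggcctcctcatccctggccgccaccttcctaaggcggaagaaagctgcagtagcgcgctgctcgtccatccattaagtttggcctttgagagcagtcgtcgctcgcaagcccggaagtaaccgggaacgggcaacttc
RAB27B, chr18:54717607-54717856, plus strand: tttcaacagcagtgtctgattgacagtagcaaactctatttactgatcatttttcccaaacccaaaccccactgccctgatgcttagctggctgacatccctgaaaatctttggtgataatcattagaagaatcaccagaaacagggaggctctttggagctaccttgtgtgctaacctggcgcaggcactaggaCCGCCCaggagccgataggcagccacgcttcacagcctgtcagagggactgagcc
RAB4A, chr1:229270861-229271110, plus strand: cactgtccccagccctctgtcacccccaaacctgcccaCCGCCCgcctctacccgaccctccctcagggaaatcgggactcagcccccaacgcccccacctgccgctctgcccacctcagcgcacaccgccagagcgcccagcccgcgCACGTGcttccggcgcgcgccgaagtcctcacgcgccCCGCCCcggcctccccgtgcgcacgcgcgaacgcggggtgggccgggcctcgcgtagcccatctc
RAB5A, chr3:19946847-19947096, plus strand: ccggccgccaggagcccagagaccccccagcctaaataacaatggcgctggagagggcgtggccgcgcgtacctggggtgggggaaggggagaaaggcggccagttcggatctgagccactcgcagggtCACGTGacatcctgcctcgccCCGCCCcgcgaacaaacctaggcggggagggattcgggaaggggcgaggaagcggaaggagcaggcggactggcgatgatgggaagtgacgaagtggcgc
The RAB27A stretch held 1 GC box, as did that of RAB27B, and 58.8% and 50.4% of their bases were G or C. RAB4A (75.2% G or C) and RAB5A (67.6%) each held an E-box besides 2 and 1 GC boxes. Whether the kind, number or place of these motifs bears on the direction of change was not tested.

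Promoters from 250 bases before to 50 after the start were in the RefSeq table for 50 of the 64 genes, 41 of them tested. A GC box was found in 35 of these 41 (85.4%), against 44.6% of all 27305 promoters of that length. The 27305 include promoters of genes not tested here. The 2 sets are thus not matched for expression, here and for the motifs below, and no difference can be ascribed to RAB genes as such. It was present in 11 of 12 promoters of RAB genes that rose and in 2 of 3 of those that fell. The E-box was found in 6 of 41 (14.6%, against 7.43% of all), and of the called genes it was in RAB4A and RAB5A. The amino acid response element TGATGNAA was in 1 of 41 (2.44%, against 3.67%), the AP-1 site TGANTCA in 3 (7.32%, against 7.76%), the cAMP response element TGACGTCA in 0 (against 1.98%) and the TATA box TATAAA in 2 (4.88%, against 12.0%). None of these last 4 motifs was in a promoter of the called genes with an entry. These are matches of letters within this window and describe the sequence alone.

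Of the 50 tested RAB genes, 14 rose and 5 fell in the EV-labelled libraries at an adjusted p under 0.05. That is 38.0% of the tested RAB genes, beside 40.9% of all 14670 tested genes, of which 20.2% rose and 20.7% fell. The share called among RAB genes was thus near that of the whole transcriptome. The median log2 fold change was 0.09 for the tested RAB genes and -0.01 for all tested genes. The changes were mostly small: 13 of the 19 called genes changed by less than 1.5-fold, and RAB39B and RAB20 alone passed 1 on the log2 scale. The median absolute log2 fold change was 0.13 for RAB genes and 0.23 for all. The groups did not overlap for 28 of the 50, with the EV-labelled libraries above in 20 and below in 8. Of all tested genes 50.6% did not overlap (25.1% above and 25.5% below). Called genes were picked by a test on these same values, so their separation, here and below, adds no support. The summed level of all 64 genes was 3588 ± 79.4 CPM against 3594 ± 30.0 CPM (SD, n = 3 each).

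**Figure D1:**
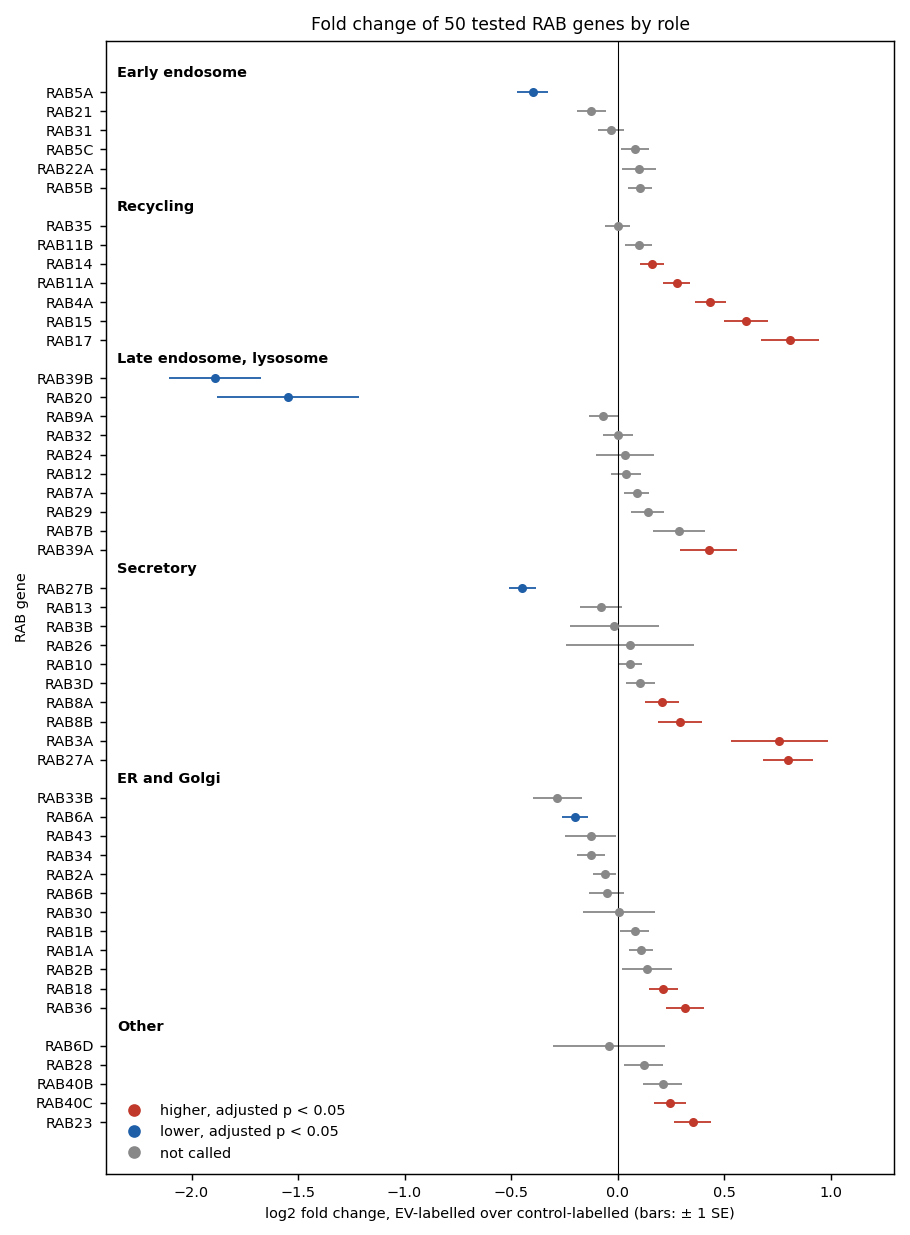
Log2 fold change (EV-labelled over control-labelled, x axis) of the 50 tested RAB genes, grouped by the compartment they are known for (y axis); bars are ± 1 SE, red and blue mark the 14 called higher and the 5 called lower, grey the 31 not called. All 7 tested recycling genes lie at or above 0, of which RAB35 (0.00) falls to -0.019 with upper-quartile scaling, and RAB39B and RAB20 stand far to the left.

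Endocytic recycling genes, which return receptors and adhesion molecules to the cell surface, rose in 5 of 7 tested (9 matched), and 0 fell. Of all tested genes 20.2% rose and 20.7% fell, which is the background for each role group below as well. The role groups were drawn up with earlier results of these data known, and differences between them were not tested. The summed level of the recycling genes was 532 ± 14.9 CPM in the control-labelled and 589 ± 3.78 CPM in the EV-labelled libraries. RAB17, a GTPase of polarized epithelial cells that serves transcytosis and apical recycling, was at 8.48, 7.42 and 7.73 CPM in the controls and at 17.0, 10.9 and 13.3 CPM in the 3 EV-labelled libraries. EV replicate 1 was the highest by far, yet each EV-labelled library lay above every control-labelled one (log2 fold change 0.81 ± 0.13 SE, adjusted p = 9.66e-05). Without EV replicate 1 the RAB17 change was 0.63. RAB15, which acts on transferrin receptor recycling, stood at 8.997, 9.07 and 7.62 CPM against 13.0, 13.2 and 12.9 CPM. Its EV-labelled libraries were tightly grouped, and the change was 0.60 ± 0.10 on the log2 scale (adjusted p = 0.000137).

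RAB4A, the GTPase of rapid recycling from early endosomes, was at 21.6, 22.9 and 23.5 CPM in the controls and at 30.4, 31.2 and 30.5 CPM in the EV-labelled libraries. This is a log2 fold change of 0.44 ± 0.07 (adjusted p = 0.000132), with a gap between the groups wider than the spread within either. In GENCODE v29, the gene SPHAR overlaps 19.6% of the exon bases of RAB4A on the same strand. SPHAR has no row among the deposited counts, so whether reads from that stretch stem from RAB4A alone cannot be told. RAB11A, which directs slow recycling through the recycling endosome, was at 77.8, 80.3 and 88.3 CPM against 97.1, 103.8 and 98.2 CPM (0.28 ± 0.06, adjusted p = 0.00165). Its paralog RAB11B stood at 127 ± 11.1 against 136 ± 2.78 CPM and missed the threshold (0.10 ± 0.06, adjusted p = 0.237).

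RAB14, which works between the trans-Golgi network and endosomes, was at 104, 101 and 103 CPM against 116, 113 and 116 CPM. The groups did not overlap, and the change was small (0.16 ± 0.06, adjusted p = 0.0254). The call was lost without control replicate 2 (adjusted p = 0.0648) or without EV replicate 1, 2 or 3 (adjusted p = 0.0581, 0.055 and 0.059), nor with the replicate number as a block (adjusted p = 0.0527). RAB35, a GTPase of rapid recycling that also takes part in exosome release, was at 179, 192 and 170 CPM against 181, 177 and 183 CPM, with overlapping groups (0.00 ± 0.06, adjusted p = 0.996). RAB25 and RAB4B, the other recycling genes, were too low to test, at 3 counts or fewer and 5 counts or fewer in each library.

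Among secretory genes, which bring vesicles to the plasma membrane, 4 rose and 1 fell of 10 tested (13 matched). The RAB27 pair moved apart. RAB27A and RAB27B are close paralogs, both known for the docking and positioning of multivesicular endosomes and secretory granules. RAB27A was at 5.27, 5.16 and 5.32 CPM in the controls and at 8.50, 9.76 and 9.20 CPM in the EV-labelled ones. Its control values lay close together and the lowest EV-labelled value was well above them (log2 fold change 0.80 ± 0.12, 1.74-fold higher, adjusted p = 2.39e-05). RAB27B was at 436, 484 and 502 CPM in the controls and at 328, 366 and 350 CPM in the EV-labelled libraries. All 3 EV-labelled libraries lay below the lowest control (-0.45 ± 0.06, 1.36-fold lower, adjusted p = 1.86e-05).

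Per kilobase of exon, RAB27B was the far more abundant of the pair. The ratio of RAB27B to RAB27A in CPM per kilobase was 62.5, 70.9 and 71.2 in the controls and 29.1, 28.2 and 28.7 in the EV-labelled libraries. RAB27A thus made up 1.45 ± 0.108% of the pair's summed level in the controls and 3.37 ± 0.0464% in the EV-labelled libraries (SD, n = 3 each). Because RAB27B dominated, the pair's sum fell with it, from 64.8 ± 4.57 to 48.4 ± 2.68 CPM per kilobase. The summed level of all secretory genes was 789 ± 34.3 against 687 ± 21.4 CPM, and without RAB27B it was 314 ± 4.11 against 339 ± 2.58 CPM, so the direction of the sum was set by RAB27B. Exons of PIGBOS1 on the same strand and PIGB on the opposite strand overlap 3.26% and 2.75% of the RAB27A exon bases. Both of these stood at lower EV-labelled means without passing (-0.20 ± 0.18 and -0.08 ± 0.13, adjusted p = 0.382 and 0.647).

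**Figure D2:**
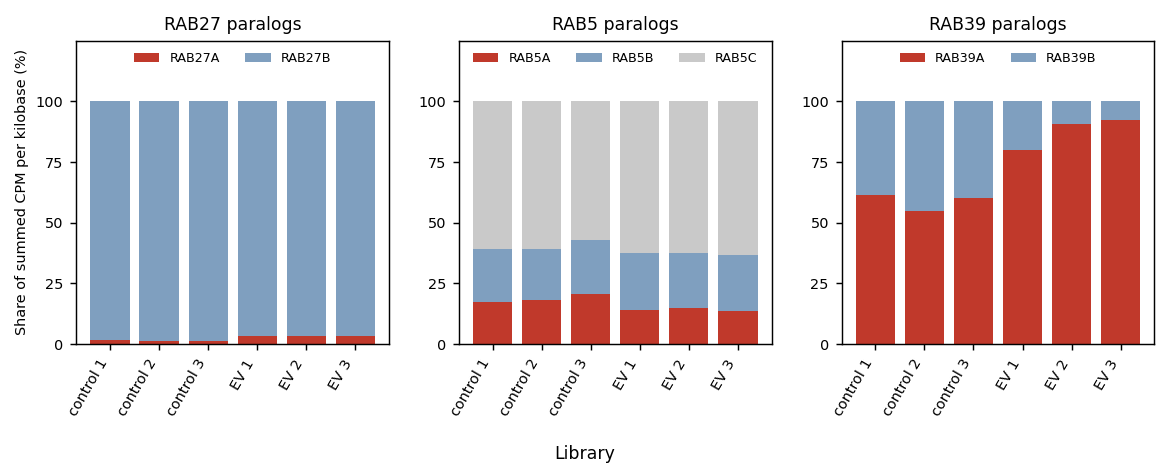
Share of each paralog (y axis, percent of the family's summed CPM per kilobase) in each of the 6 libraries (x axis) for RAB27, RAB5 and RAB39. RAB27A took 1.38% to 1.58% in the control-labelled and 3.33% to 3.42% in the EV-labelled libraries, and RAB39A went from a mean of 58.9% to 87.7%.

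The other secretory changes were in RAB8A, RAB8B and RAB3A. RAB8A and RAB8B, which drive exocytosis to the basolateral surface and the primary cilium, both rose. RAB8A was at 42.4, 41.1 and 34.1 CPM against 44.6, 44.0 and 47.3 CPM (0.21 ± 0.08, adjusted p = 0.0398). Control replicate 3 was its lowest library, and without it the change was 0.12 (adjusted p = 0.22). RAB8A also lost its call without EV replicate 1 (adjusted p = 0.0612), 2 (adjusted p = 0.0609) or 3 (adjusted p = 0.132), or with upper-quartile scaling (adjusted p = 0.0572). The gene AC008894.2 overlaps 37.8% of its exon bases on the opposite strand.

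RAB8B was at 9.55, 10.9 and 11.4 CPM against 12.8, 12.4 and 13.9 CPM (0.29 ± 0.10, adjusted p = 0.0268), and was not called without control replicate 1 (adjusted p = 0.106) or EV replicate 3 (adjusted p = 0.103). RAB3A, the GTPase of regulated exocytosis in neurons and endocrine cells, stood at 2.10, 1.10 and 1.65 CPM against 3.25, 2.29 and 2.53 CPM (0.76 ± 0.23, adjusted p = 0.0117). Its call was lost without control replicate 2 (adjusted p = 0.0728) or EV replicate 1 (adjusted p = 0.0787). MPV17L2 overlaps 9.08% of the RAB3A exon bases on the opposite strand, is far more abundant, and also rose, from 30.3 to 42.9 CPM (0.50 ± 0.07, adjusted p = 1.19e-05). The labels name a strand-marking kit but not whether counting used strand, and the part of such reads in the RAB3A result was not tested. RAB10, RAB13, RAB3B, RAB3D and RAB26 did not pass, with log2 fold changes from -0.08 to 0.11. The gene AL358472.6 shares 24.8% of the RAB13 exon bases on the same strand, so the level of RAB13 is uncertain.

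**Figure D3:**
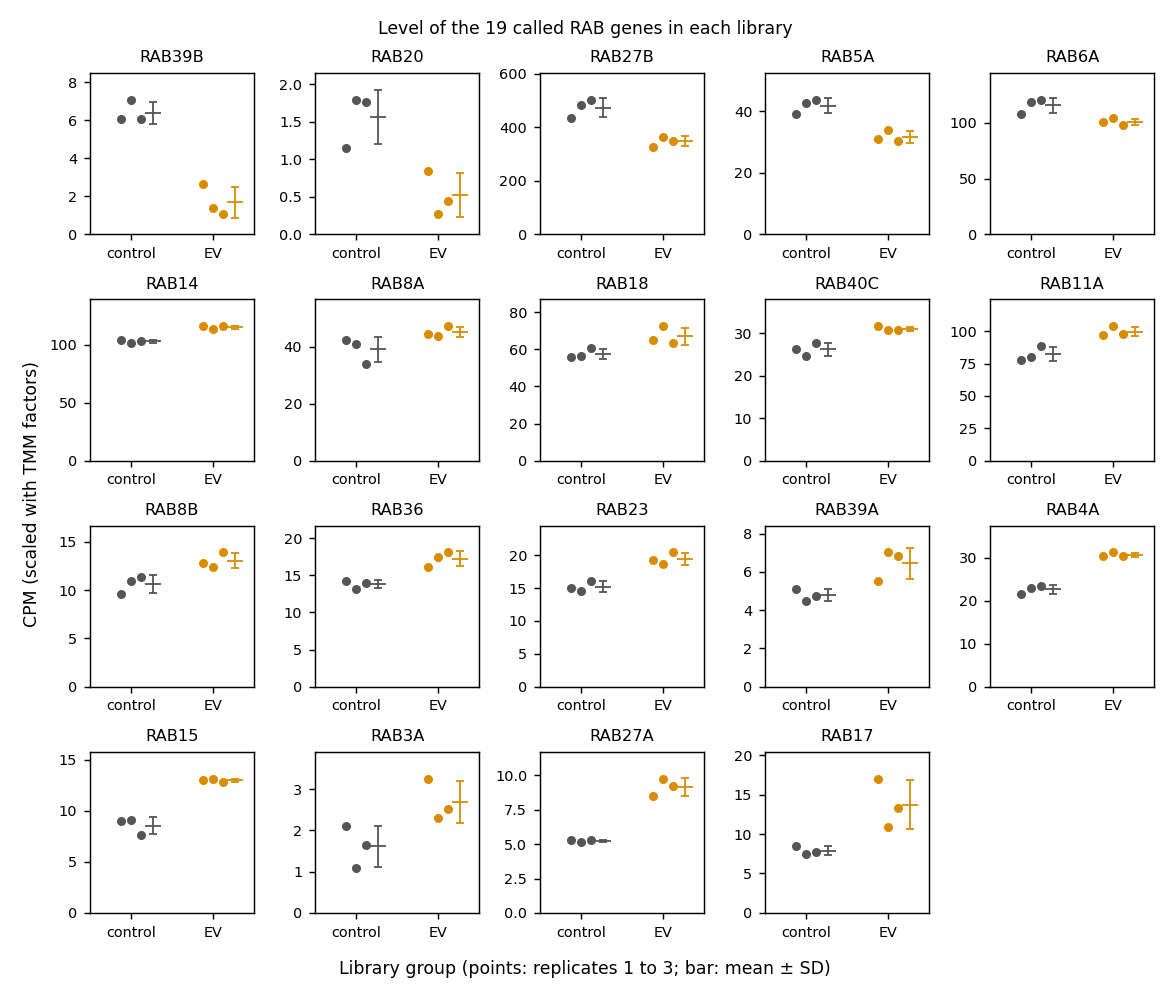
Level in CPM (y axis, from 0) of the 19 called RAB genes in each library, control-labelled and EV-labelled (x axis), ordered by fold change; points are libraries and bars the mean ± SD. In all 19 the EV-labelled points lie wholly above or wholly below the control-labelled ones. The 19 were picked by a test on these same values, so this separation adds no support. Of all 14670 tested genes, 50.6% did not overlap either.

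Of the 6 early endosomal genes, all tested, 1 fell and 0 rose. RAB5 proteins control the fusion of endocytic vesicles and early endosomes, and 3 genes encode them. RAB5A was at 39.0, 42.6 and 43.6 CPM in the controls and at 31.1, 33.8 and 30.2 CPM in the EV-labelled libraries. The highest EV-labelled value was below the lowest control (-0.40 ± 0.07, adjusted p = 0.000268). RAB5B was at 84.3 ± 1.24 against 90.6 ± 0.184 CPM (0.10 ± 0.06, adjusted p = 0.151) and RAB5C at 97.2 ± 7.43 against 102.9 ± 1.67 CPM (0.08 ± 0.06, adjusted p = 0.319), and neither passed. The gene AC099811.2 shares 28.8% of the RAB5C exon bases on the same strand, so its level is uncertain. The family's summed level per kilobase was 59.0 ± 2.53 against 59.4 ± 0.991, of which RAB5A made up 18.7 ± 1.58% and 14.1 ± 0.638%. RAB21, RAB22A and RAB31 did not pass, with log2 fold changes from -0.12 to 0.10.

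Late endosomal, lysosomal and related genes had 1 higher and 2 lower members of 10 tested (13 matched). RAB7A, which governs the fusion of late endosomes with lysosomes, had the highest level per kilobase of the family, and was at 717, 703 and 641 CPM against 729, 730 and 733 CPM. Its groups did not overlap but the difference did not pass (0.09 ± 0.06, adjusted p = 0.229). RAB39B, known for its role in neurons and in autophagy, was at 6.08, 7.06 and 6.05 CPM in the controls and at 2.63, 1.38 and 1.08 CPM in the EV-labelled libraries. It had the largest change of the 50 tested RAB genes (-1.89 ± 0.21, 3.71-fold lower, adjusted p = 1.37e-06). Its paralog RAB39A, which acts at phagosomes and lysosomes, was at 5.10, 4.50 and 4.77 CPM against 5.51, 7.01 and 6.83 CPM (0.43 ± 0.14, adjusted p = 0.0163). EV replicate 1 lay nearest to the controls for both paralogs. The RAB39A call was lost without control replicate 2 (adjusted p = 0.0547) or EV replicate 2 or 3 (adjusted p = 0.0702 and 0.0598).

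RAB20, a GTPase of phagosome maturation, was at 1.16, 1.79 and 1.76 CPM against 0.850, 0.275 and 0.442 CPM (-1.55 ± 0.33, 2.92-fold lower, adjusted p = 0.00107). Behind these values stand 27, 49 and 48 counts in the controls and 23, 6 and 11 in the EV-labelled libraries, so the size of the fall is imprecise. Without EV replicate 1, its highest EV-labelled library, the change was -2.10, and without EV replicate 2, its lowest, it was -1.27. RAB7B, which carries cargo from late endosomes to the trans-Golgi network, was at 9.502 ± 1.73 against 11.5 ± 1.06 CPM, short of the threshold (0.29 ± 0.12, adjusted p = 0.0674). Control replicate 1 was its highest control, and without it the change was 0.44 (adjusted p = 0.00695). RAB9A, RAB12, RAB24, RAB29 and RAB32 did not pass either, with log2 fold changes from -0.07 to 0.14. MXD3 shares 44.8% of the RAB24 exon bases on the same strand, so the level of RAB24 is uncertain.

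ER and Golgi genes had 2 higher and 1 lower member of 12 tested (16 matched). RAB6A, which serves traffic within and from the Golgi, was at 108, 119 and 121 CPM against 100.5, 104.1 and 98.5 CPM (-0.20 ± 0.06, adjusted p = 0.0126), and was not called without EV replicate 1 (adjusted p = 0.0512) or 3 (adjusted p = 0.0651). Its paralog RAB6B did not pass (-0.05 ± 0.08, adjusted p = 0.644). RAB18, a GTPase of the ER and lipid droplets, was at 56.0, 56.3 and 60.8 CPM against 64.9, 72.5 and 63.6 CPM (0.21 ± 0.07, adjusted p = 0.0151). EV replicate 2 was its highest library, and the call was lost without it (adjusted p = 0.112) or without control replicate 1 (adjusted p = 0.0523). RAB36, a Golgi-associated GTPase linked to late endosome positioning, was at 14.3, 13.2 and 14.0 CPM against 16.1, 17.5 and 18.1 CPM (0.32 ± 0.09, adjusted p = 0.00826).

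RAB33B, which binds an autophagy factor at the Golgi, stood just outside the threshold at 8.35 ± 0.586 against 6.85 ± 0.256 CPM (-0.28 ± 0.11, adjusted p = 0.054), without overlap between groups. The ER-to-Golgi genes RAB1A and RAB1B were at 0.11 ± 0.06 and 0.08 ± 0.07 on the log2 scale (adjusted p = 0.118 and 0.355). RAB2A, RAB2B, RAB30, RAB34 and RAB43 did not pass, with log2 fold changes from -0.13 to 0.14. The readthrough gene ISY1-RAB43 shares 79.3% of the RAB43 exon bases, so the level of RAB43 is uncertain.

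The remaining group held 2 higher and 0 lower of 5 tested (7 matched). RAB23, a GTPase that restrains Hedgehog signalling, was at 15.04, 14.5 and 16.1 CPM against 19.3, 18.7 and 20.4 CPM (0.35 ± 0.09, adjusted p = 0.00303). The chaperone gene BAG2 lies on the opposite strand over 57.7% of the RAB23 exon bases. It was at 42.0 against 53.6 CPM and also rose (0.35 ± 0.07, adjusted p = 0.000544). Whether counting used strand is not known, and the part of BAG2 reads in the RAB23 result was not tested. RAB40C, which carries a SOCS box that recruits a ubiquitin ligase, was at 26.2, 24.6 and 27.7 CPM against 31.6, 30.7 and 30.8 CPM (0.25 ± 0.07, adjusted p = 0.0131), and was not called without control replicate 2 (adjusted p = 0.0588). RAB40B, RAB28 and RAB6D did not pass, with log2 fold changes from -0.04 to 0.21. RAB6D shares 31.1% of its 100-base stretches with another gene, mostly RAB6C, and is uncertain.

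Per kilobase of exon, the family spanned a wide range in the control-labelled libraries. RAB7A stood at 253 ± 14.8 CPM per kilobase, 3.64-fold above the next gene, the lysosome-related RAB32 at 69.5 ± 6.83. RAB27B followed at 63.8 ± 4.57, then RAB1B at 58.4 ± 5.31 and RAB10 at 57.6 ± 1.03, and from RAB32 to RAB10 each gene differed from the next by less than their SDs summed. In the EV-labelled libraries RAB7A and RAB32 kept the first places at 269 ± 0.767 and 69.7 ± 3.81, and RAB27B went from rank 3 to rank 7 at 46.8 ± 2.57. At the low end, RAB3B was at 0.148 ± 0.0255. RAB27A stood at rank 45 in the controls (0.936 ± 0.0147) and 41 in the EV-labelled libraries (1.63 ± 0.112), and RAB39B went from rank 39 to 45. Of the 11 tested genes at or above 100 CPM in the controls, 3 were called (RAB27B, RAB14 and RAB6A), and of the 16 under 10 CPM, 7 were. Among all 14670 tested genes 40.9% were called. The share of all genes called at these levels was not computed, so no link between level and calls can be read from this.

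**Figure D4:**
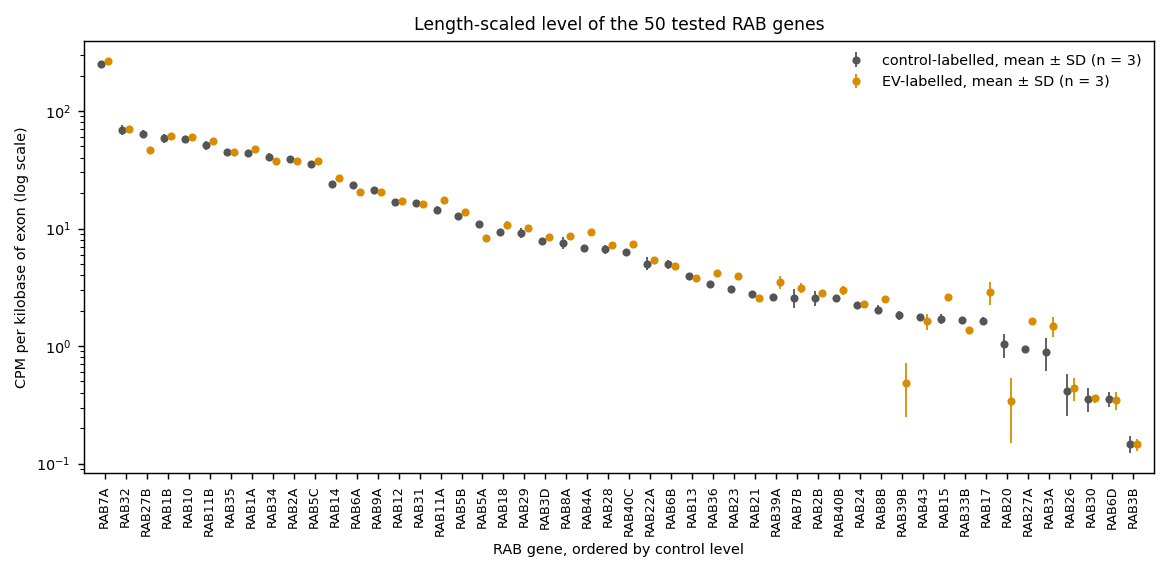
Level per kilobase of exon (y axis, log scale, CPM per kilobase) of the 50 tested RAB genes ordered by their control level (x axis); points are means and bars ± SD over 3 libraries of each group. RAB7A lies above all others at 253 and 269, and RAB39B and RAB20 show the widest gaps between groups.

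The 14 matched genes that were not tested had at most 9 counts in any library. RAB44 was without counts in every library (0 in each), so that levels up to 0.110 to 0.138 CPM remain possible by library, for counting error only. RAB9B, a paralog of RAB9A, had 0, 1 and 1 counts in the controls and 9, 7 and 3 in the EV-labelled libraries, and RAB33A had 2, 4 and 9 against 1, 0 and 1. RAB25, an epithelial RAB11 relative studied in carcinoma, had 1, 2 and 3 counts against 0, 0 and 0. The others were RAB19, RAB1C (a pseudogene), RAB37, RAB38, RAB3C, RAB40A, RAB41, RAB42, RAB4B and RAB6C.

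The proteins that act on or with RAB GTPases were taken from 5 lists. Of 119 tested partner genes, 9 rose and 32 fell, beside the 20.2% and 20.7% of all tested genes, with a median log2 fold change of -0.04. Among the insertion and recycling factors 0 of 8 rose and 2 fell. CHM, the escort protein that presents new RAB proteins for lipid attachment, was at 42.2 ± 2.32 against 36.0 ± 2.56 CPM (-0.23 ± 0.07, adjusted p = 0.0162). Its paralog CHML did not pass (adjusted p = 0.0654), and neither did RABGGTA and RABGGTB, the subunits of the lipid transferase (adjusted p = 0.929 and 0.436).

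Of 32 tested exchange factors, 2 rose and 6 fell. DENND5A, which acts on RAB39, was at 195 ± 6.25 against 133 ± 4.92 CPM (-0.55 ± 0.06, adjusted p = 5.09e-07). Its paralog DENND5B rose, from 84.9 ± 11.0 to 110.6 ± 2.59 CPM (0.38 ± 0.08, adjusted p = 0.000501). SBF1, a myotubularin-related DENN protein, was at 120 ± 11.6 against 182 ± 4.94 CPM (0.60 ± 0.07, adjusted p = 1.11e-06), and HPS4, a subunit of the exchange factor for RAB32 and RAB38, fell (-0.45 ± 0.07, adjusted p = 5.52e-05). Of 29 GTPase-activating proteins, 3 rose and 6 fell. TBC1D2 (-0.51 ± 0.06, adjusted p = 2.41e-06), TBC1D9 (-0.98 ± 0.12, adjusted p = 4.32e-06) and TBC1D9B (-0.30 ± 0.06, adjusted p = 0.000385) were lower, and TBC1D14, which acts on RAB11 recycling endosomes in autophagy, was higher (0.29 ± 0.06, adjusted p = 0.00126).

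Of 43 tested effectors, 16 fell (37.2%) and 3 rose (6.98%), beside 20.7% and 20.2% of all tested genes. The share lower was 25% of insertion and recycling factors, 18.8% of exchange factors, 20.7% of GTPase-activating proteins and 28.6% of the 7 RAB-like proteins, and the difference between lists was not tested. The BICD adaptors, which link RAB6 vesicles to dynein, were both lower: BICD2 was at 84.8 ± 5.71 against 59.1 ± 3.57 CPM (-0.52 ± 0.07, adjusted p = 6.76e-06) and BICD1 at 35.5 ± 2.27 against 25.7 ± 1.99 CPM (-0.47 ± 0.08, adjusted p = 0.000115). USO1, the RAB1 tether of ER-to-Golgi traffic, fell (-0.32 ± 0.06, adjusted p = 0.00022). SYTL3, a synaptotagmin-like RAB27 effector, was at 6.35 ± 0.628 against 3.93 ± 0.314 CPM (-0.69 ± 0.14, adjusted p = 0.000524). The effector list holds 9 genes whose products bind RAB27, of which 7 were tested, and this subset was chosen after values were seen. Of the 7, 3 fell, 1 rose and 3 did not pass. Besides SYTL3, melanophilin (MLPH, -0.19 ± 0.06, adjusted p = 0.015) and EXPH5 (-0.997 ± 0.35, adjusted p = 0.0274) were the lower ones. SYTL4, a granule-associated relative of SYTL3, rose (0.58 ± 0.20, adjusted p = 0.0248) with overlapping groups. SYTL1 (0.33 ± 0.19, adjusted p = 0.163), SYTL2 (0.22 ± 0.11, adjusted p = 0.123) and UNC13D (-0.44 ± 0.34, adjusted p = 0.317) did not pass, and SYTL5 and MYRIP were not tested. Among 7 tested RAB-like proteins outside the naming rule, RABL2B (-0.47 ± 0.11, adjusted p = 0.00274) and IFT27 (-0.38 ± 0.13, adjusted p = 0.023), both of ciliary transport, fell, and CRACR2A rose (0.23 ± 0.07, adjusted p = 0.0154). RABL2B has the near-identical copy RABL2A and is uncertain.

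**Figure D5:**
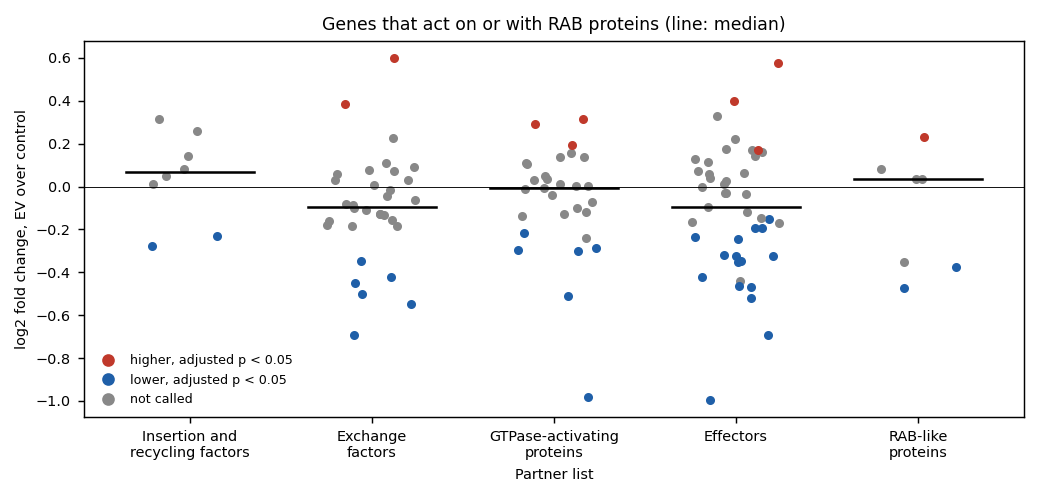
Log2 fold change (y axis, EV-labelled over control-labelled) of the 119 tested partner genes in 5 lists (x axis); each point is a gene, red and blue mark the 9 called higher and the 32 called lower, and black lines are list medians. The effector list holds 16 of the blue points.

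In the authors' deposited table, which lists 63 of the 64 genes as control over EV, all 19 called RAB genes also had a q-value under 0.05, and 0 other tested RAB genes did. That table rests on the same libraries. It marks as changed RAB39B (log2 fold change 1.88 in the authors' deposited table), RAB20 (1.53), RAB25 (4.04, with a q-value of 0.124) and RAB33A (2.60, with a q-value of 0.047) as higher in the controls. It marks RAB9B (-3.12, with a q-value of 0.00485) as higher in the EV-labelled libraries. RAB33A and RAB9B, not tested here, thus also had a q-value under 0.05 in the authors' deposited table. RAB25, RAB33A and RAB9B are those with at most 9 counts in a library given above.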

How the data were processed

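Poly(A) RNA was sequenced from 6 libraries, 3 per group. The authors deposited raw counts per gene, and TopHat, RSEM and hg19 are named in the submitters' processing notes, without versions or roles. Neither the annotation release nor the counting settings were found there. The authors' deposited table of their own comparison gives p-values, q-values and log2 values (group abundance and fold change). The group columns showed its direction, and it serves only the last paragraph of results.

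Of 32453 features, 375 without a gene name (0.099% to 0.134% of counts) were left out. The quasi-likelihood test of edgeR 4.0.16 (R 4.3.3) was used, with TMM factors and filterByExpr, and Benjamini-Hochberg adjustment over all 14670 tested genes. Adjusted p-values are from this test, except those given with an alternative setting or a left-out library, which are from that fit. SE was obtained as the absolute log2 fold change over the root of the F statistic, and CPM is given as mean ± SD over 3 libraries. The test was tested on simulated data. Exon lengths and overlaps came from GENCODE v29 by gene ID (50 of 50 tested RAB genes matched), and promoters from RefSeq by symbol. Both are on GRCh38, not hg19. Each length is the union of all annotated exons of a gene, not the length of the transcript expressed. Level per kilobase, and the ranks, ratios and paralog shares built on it, are therefore approximate.

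The members, roles and lists were chosen with earlier results of these data known. The text names every called RAB gene, 6 fixed ones (RAB27A, RAB27B, RAB5A, RAB7A, RAB11A, RAB35), and up to 4 called genes per partner list with the lowest adjusted p, except 1 gene that is not reported here. Alternatives were other scaling factors and count filters, DESeq2 1.42.0, limma-voom (limma 3.58.1), the replicate number as a block, an adjusted p under 0.01, and each library left out.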

Additional observations from a re-analysis of the deposited data

How the results depend on the processing

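Of the 19 called RAB genes, 11 passed under every alternative that kept the threshold of 0.05: RAB4A, RAB11A, RAB15, RAB17, RAB23, RAB27A and RAB36 higher, and RAB5A, RAB20, RAB27B and RAB39B lower. The other 8 were lost in at least 1, all without a change of direction. How many of all called genes passed under every alternative was not computed. None of the alternatives dealt with reads of overlapping genes, such as BAG2 at RAB23. At an adjusted p under 0.01, 7 RAB genes were higher and 4 lower, and 5 partner genes were higher and 23 lower. Of all 14670 tested genes, 2036 were higher and 2057 lower at that threshold. Without one library, 10 to 13 RAB genes were higher and 4 to 6 lower, 6 to 12 partner genes were higher and 23 to 31 lower, and 4756 to 5612 genes were called in all. RAB35, never called, was at -0.019 with upper-quartile scaling, -0.0088 with the filter of 1 CPM in 3 libraries and -0.042 to 0.047 without one library. Genes called in an alternative alone were RAB7B, RAB9B, RAB33B, RAB29 and RAB40B. Without a count filter these were RAB7B (adjusted p = 0.0359) and RAB9B (adjusted p = 0.00809). RAB7B was also called without control replicate 1 (adjusted p = 0.00695). RAB33B was called with upper-quartile scaling (adjusted p = 0.0412) and with 1 CPM in 3 libraries (adjusted p = 0.0432). Without control replicate 2, RAB33B (adjusted p = 0.0411) and RAB29 (adjusted p = 0.0454) were called. RAB40B was called without EV replicate 3 (adjusted p = 0.0307). With DESeq2, limma-voom, median-ratio scaling or library totals the same 19 RAB genes were called. Same-numbered libraries did not deviate together (correlations -0.052, -0.029 and -0.0509), and no library correlated best with its own number. With the replicate block, 5743 genes were called against 6001, 14 RAB genes were higher and 5 lower, RAB14 was lost (adjusted p = 0.0527) and RAB7B gained (adjusted p = 0.0424). Depth limits the 14 untested RAB genes, at 9 counts or fewer per library.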

Other observations

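Summed over a group's 3 libraries, RAB9B, which was too low for the count filter, had 2 counts in the control-labelled libraries and 19 in the EV-labelled ones. RAB25 had 6 against 0, RAB33A 15 against 2, and RAB42 8 against 1. RAB40A, by contrast, had 18 against 19.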
